A study of Mus musculus with 9 samples.

Results

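Transcripts of 8 genes of the nuclear RNA-processing machinery were followed in macrophages and microglia sorted from degenerating mouse retinas. Malat1 and Neat1 are long noncoding RNAs, Clk1, Sf3b1, Srsf5, Srsf2 and Ddx5 encode splicing regulators, and Son encodes a scaffold protein of nuclear speckles. They were matched by gene symbol in the deposited gene lists, where they are 8 of 27998 genes, and all 8 had enough reads to be tested. They were grouped because earlier work on these data showed that their levels move together between cells, so that shared pattern is given here as a description. The libraries were made from whole cells, so the data do not show whether these RNAs were in the nucleus.

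All samples came from adult female Arr1-/- mice, which lack visual arrestin (the Sag gene), were bred in constant darkness, and lose photoreceptors once they are kept in constant room light. The 3 groups were retinas after 0, 7 and 20 days of light, with 3 libraries each and no wild-type control. CD45+ CD11b+ cells from pooled mice were sorted and profiled with 10x Genomics 3' chemistry, and how the mice map onto the libraries is not given, so p-values measure the spread between libraries, which may be technical. Levels are given in CPM, the unique molecular identifiers (UMIs, each a counted RNA molecule) of a gene over all UMIs of the same cells on a scale of 1e6, and for the tests UMIs were summed over the cells of each library.

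The 9 libraries listed 5022 barcode entries, which came from 1365 different barcodes. Of these barcodes, 612 were listed in more than 1 library and 270 in all 9, so each was kept only in the library where its UMI total was highest. After limits on genes detected, mitochondrial UMIs and cell type markers, 739 cells with 1126465 UMIs were kept, 255 at day 0, 284 at day 7 and 200 at day 20. A library held 17 to 194 kept cells and 20443 to 277725 UMIs, and the shallowest were replicate 3 of day 7 (17 cells) and replicate 3 of day 20 (33 cells). All 20 genes of the myeloid marker list were detected, at 52250 to 85702 CPM in sum. The knocked-out gene Sag gave 11 UMIs over all 5022 barcode entries of the 9 libraries. Rod photoreceptor markers summed to 1078 to 6581 CPM in the day 0 libraries and to 189 to 1076 CPM in those after light.

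Malat1 is one of the most abundant nuclear RNAs of mammalian cells and is enriched in nuclear speckles, the bodies that store splicing factors. Neat1 is the RNA core around which paraspeckles form. SR proteins such as Srsf2 and Srsf5 bind exons and recruit the spliceosome, Clk1 phosphorylates SR proteins and so releases them from speckles, Sf3b1 is the U2 snRNP subunit that recognises the branch point, and Ddx5 is an RNA helicase that also acts in transcription. Transcripts of SR proteins and of Clk1 are known to be held partly in the nucleus with introns still in place.

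Both noncoding RNAs lie on chromosome 19 and are read from the minus strand, Malat1 at chr19:5795690-5802672 and Neat1 at chr19:5824708-5845478 (GRCm38, GENCODE M21), with 22035 bases between them. Because Malat1 ends in a folded structure rather than a usual poly(A) tail, an A-rich stretch of its annotated transcript is shown, as the libraries were primed on poly(A). The longest A run of the Malat1-201 transcript holds 12 bases (in capitals) and lies 298 bases before the annotated 3' end. The annotation does not give the end of the mature RNA, so this run need not lie apart from the folded end. The long Neat1-201 transcript has no run of 10 A bases. Its window of 25 bases with the most A (20 of 25, in capitals) is shown beside the Malat1 run. By that window measure Malat1-201 reaches 18 of 25, elsewhere in the transcript, and the short Neat1-202 transcript (3004 bases) 13 of 25. The Malat1 stretch is chr19:5795948-5796039 and the Neat1 stretch chr19:5834079-5834163, both exonic and on the minus strand. Whether reads began at these stretches was not tested.
Malat1-201: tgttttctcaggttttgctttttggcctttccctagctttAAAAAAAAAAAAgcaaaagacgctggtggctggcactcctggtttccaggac
Neat1-201: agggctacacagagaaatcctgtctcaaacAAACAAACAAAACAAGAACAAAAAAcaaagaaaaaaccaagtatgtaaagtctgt

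The kept cells fell into separate ranges of Malat1. No Malat1 UMI was found in 338 of 739 cells (45.7%), while 90 cells took 1% or more of their UMIs from this single RNA. At the depth of most cells a count of 0 does not show that the RNA was absent. Between those ranges the cells were few, with 20 cells from 0.3% to under 0.5% and 10 cells from 0.5% to under 1%. Cells at or above 0.5% are called Malat1-rich and the others Malat1-poor, a limit set after the values were seen that marks a range and not a cell type. The nearest cells on either side of it stood at 0.505% and 0.494%.

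By this limit 100 of 739 cells (13.5%) were Malat1-rich. Their median Malat1 share was 2.56% of UMIs, the highest was 17.1%, and their median count was 99.5 Malat1 UMIs. The count was small in the shallowest of them, where the lowest was 2 UMIs, but 86 of the 100 had at least 20. Malat1-poor cells held none (338 cells), 1 (190 cells), 2 (71 cells) or at least 3 Malat1 UMIs (40 cells).

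**Figure D1:**
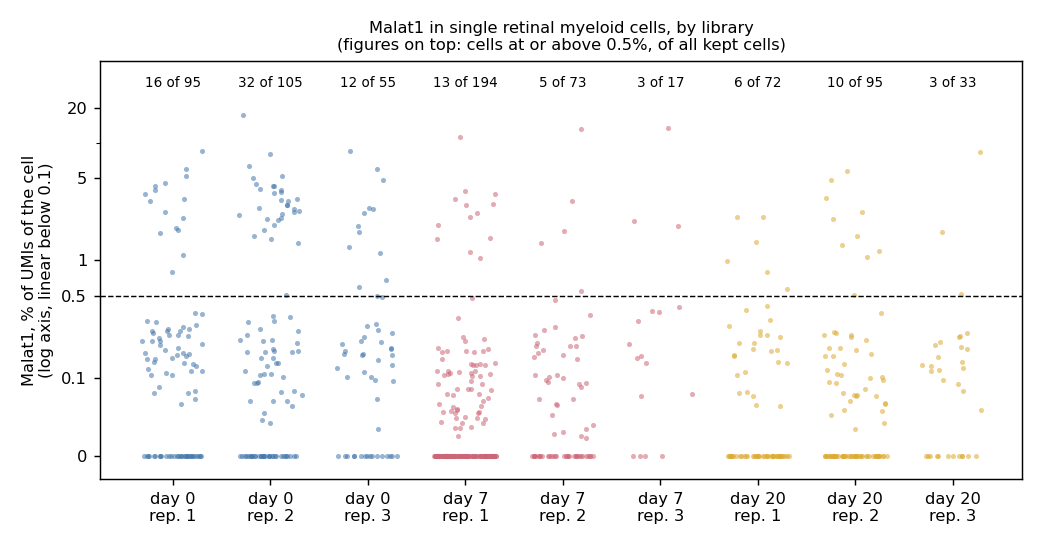
Malat1 as a percentage of each cell's UMIs (log axis, linear below 0.1) in the 9 libraries. Each point is a kept cell, the dashed line is the 0.5% limit, and the figures on top count the cells at or above it, from 3 of 17 to 32 of 105. Few cells lie close to the line.

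Malat1-rich cells were found at every time point and in every library. They made up 16.8%, 30.5% and 21.8% of the cells of the dark libraries. After 7 days of light they were 6.70%, 6.85% and 17.6%, and after 20 days 8.33%, 10.5% and 9.09%. The means were 23.0% ± 6.90 (SD, n = 3), 10.4% ± 6.28 (SD, n = 3) and 9.32% ± 1.11 (SD, n = 3), and the highest library of day 7, which had 17 cells, lay within the day 0 range. Because they were deep, Malat1-rich cells held 57.9% of the UMIs in the dark, then 18.1% and, after 20 days, 37.2%. By library the share ran from 52.4% to 63.7% at day 0, from 12.5% to 38.0% at day 7 and from 11.3% to 44.6% at day 20.

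The other 7 genes were concentrated in the same cells. Malat1-rich cells held 38.7% of the UMIs of all kept cells, but 95.9% of the Malat1 UMIs, 90.2% of Neat1, 85.8% of Clk1, 77.7% of Son, 77.5% of Srsf5, 77.1% of Srsf2, 73.6% of Ddx5 and 67.6% of Sf3b1. The level of each of the 8 genes was higher in Malat1-rich than in Malat1-poor cells in 9 of 9 libraries. Of all 2341 genes with at least 50 UMIs, 186 were higher there in 8 or 9 libraries. In the shallowest libraries the order rests on few molecules. In replicate 3 of day 20, for example, Neat1 had 1 UMI in 3 Malat1-rich cells against 0 in 30 Malat1-poor cells, and Clk1 2 against 1. Malat1 itself set the classes, and the other genes were chosen for moving with it, so these ratios carry no test.

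Among the noncoding RNAs, Neat1 stood at 1181 CPM in Malat1-rich cells and 81.1 CPM in Malat1-poor cells, a ratio of 14.6. Malat1, which defines the classes, stood at 27742 and 749 CPM. Of the SR proteins and their kinase, Clk1 stood at 346 against 36.2 CPM (ratio 9.56), Srsf5 at 830 against 152 CPM (5.46) and Srsf2 at 555 against 104 CPM (5.32). The kinase transcript thus had a higher ratio than those of its 2 substrates listed here. Son gave 537 against 97.0 CPM (5.53), Ddx5 1787 against 404 CPM (4.42) and Sf3b1 321 against 97.0 CPM (3.31). Sf3b1, the core spliceosome subunit, had the lowest pooled ratio of the 8, although at day 7 Ddx5 (3.21) lay under Sf3b1 (3.61). Of all 2341 genes with at least 50 UMIs, 24.5% had a ratio over 2 and the median ratio was 1.08.

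**Figure D2:**
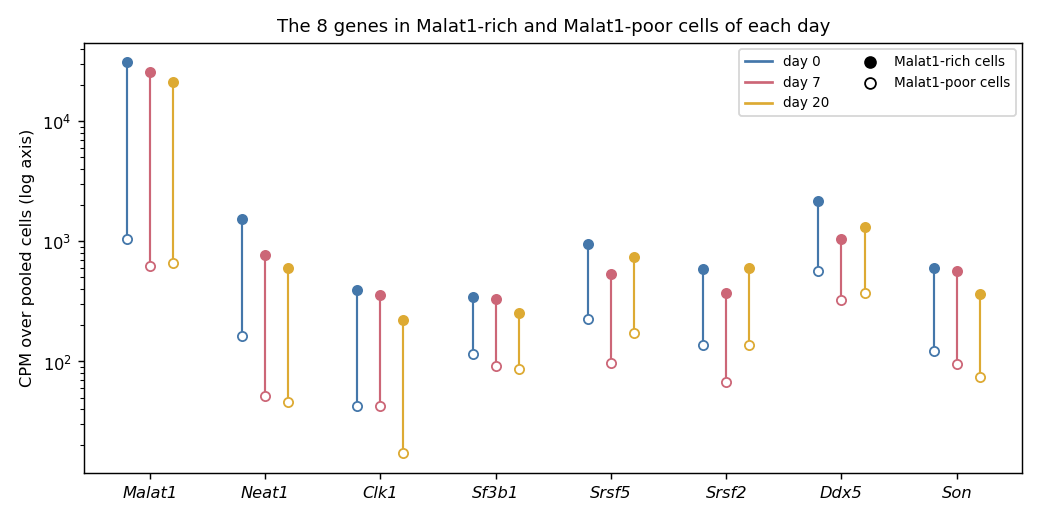
CPM of the 8 genes (log axis) over the pooled Malat1-rich cells (filled points) and Malat1-poor cells (open points) of each day. Every filled point lies above its open point, with the widest gap for Malat1 and the narrowest for Sf3b1 at days 0 and 20 and for Ddx5 at day 7.

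Within each day the ratios of all 8 genes were above 1. The Neat1 ratio was 9.33 at day 0 and 14.9 at day 7, and the Sf3b1 ratio was 2.98 and 3.61. Per cell, Spearman's rank correlation over the 739 cells between the Malat1 share and the share of another member ran from 0.316 (Srsf5) to 0.445 (Neat1). It was lower within the 639 Malat1-poor cells, from 0.0357 (Clk1) to 0.104 (Ddx5). Within the 100 Malat1-rich cells it ran from 0.118 (Sf3b1) to 0.344 (Clk1). All these cells share few libraries and are sparse (195 cells had no UMI of any of the 8 genes), and deeper cells have more of these genes, so the coefficients only describe the table. Over the 739 cells the rank correlation with the Malat1 share was 0.339 for the UMI total and -0.412 for the ribosomal protein share. It was 0.412 for the immediate-early share and 0.0383 for the mitochondrial share.

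Depth moved with the classes. The median Malat1-rich cell had 3559 UMIs and 1180 genes, the median Malat1-poor cell 846 UMIs and 369 genes. Of cells with at least 4000 UMIs, 46 of 52 were Malat1-rich, including 28 of 28 at day 0, against 13 of 282 cells with 500 to 999 UMIs. Doublets were not called, so the deepest cells may include some. In each of the depth ranges below, all 8 genes were again higher in Malat1-rich cells. These ranges leave out 8 Malat1-rich cells under 500 UMIs and the 46 with at least 4000. Within a range depth was not equal, with medians of 591 against 705, 1645 against 1299.5 and 2800.5 against 2431 UMIs in Malat1-rich and Malat1-poor cells. With 500 to 999 UMIs, 13 Malat1-rich cells had Neat1 at 1274 CPM, Clk1 at 463 CPM and Son at 1158 CPM, and 269 Malat1-poor cells had 82.1, 30.8 and 97.5 CPM. Besides Malat1, the ratios in that bin ran from 1.74 for Srsf5, which was seen in 2 of the 13 cells, to 15.5 for Neat1. With 1000 to 1999 UMIs they ran from 3.05 (Srsf2) to 16.4 (Neat1), and with 2000 to 3999 UMIs from 3.56 (Srsf5) to 20.3 (Neat1).

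What else the Malat1-rich cells shared was not used to choose them. Ribosomal protein mRNAs took a median 7.85% of their UMIs against 25.8% in Malat1-poor cells, and 2 of 84 ribosomal protein genes had a ratio over 1. Other measures differed between the classes in ways that changed with the day. The median mitochondrial share was 1.37% in Malat1-rich and 1.94% in Malat1-poor cells at day 0, 2.94% and 1.13% at day 7, and 1.52% and 1.72% at day 20. MHC class II genes summed to 161 and 691 CPM at day 0, to 22474 and 6155 CPM at day 7, and to 1758 and 5697 CPM at day 20, so they were higher in Malat1-rich cells at day 7 and lower there on the other days. Rod markers summed to 3982 and 3777 CPM at day 0, to 539 and 404 CPM at day 7, and to 647 and 413 CPM at day 20. Myeloid markers summed to 50168 and 62164 CPM, 76991 and 54648 CPM, and 60255 and 64569 CPM on the 3 days. Of the 20 myeloid genes, 2, 5 and 2 had a ratio over 2 at days 0, 7 and 20. The microglial gene Cx3cr1 had ratios of 3.04, 2.07 and 4.05 on those days, Tmem119 2.30, 1.47 and 2.51 and P2ry12 1.38, 1.00 and 1.55. Other myeloid genes were lower in Malat1-rich cells on each day, such as Aif1 (0.443, 0.272 and 0.543) and Tyrobp (0.493, 0.391 and 0.636).

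Immediate-early genes, which encode transcription factors and regulators that are switched on within minutes of a stimulus, including the handling of tissue, moved with the classes too. Their 12 transcripts summed to 57435 CPM in Malat1-rich and 5265 CPM in Malat1-poor cells at day 0 (ratio 10.9), to 11244 and 2978 CPM at day 7 (ratio 3.78) and to 33218 and 3427 CPM at day 20 (ratio 9.69). All 12 had a ratio over 2 at days 0 and 20 and 11 of 12 at day 7, where Fos stood at 1148 and 674 CPM. Heat-shock genes summed to 5542 and 1984 CPM at day 0 and to 3081 and 1840 CPM at day 20, but to 1826 and 2282 CPM at day 7, where Malat1-rich cells were the lower. The part of these genes, of rod RNA and of cell depth in the split was not tested.

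**Figure D3:**
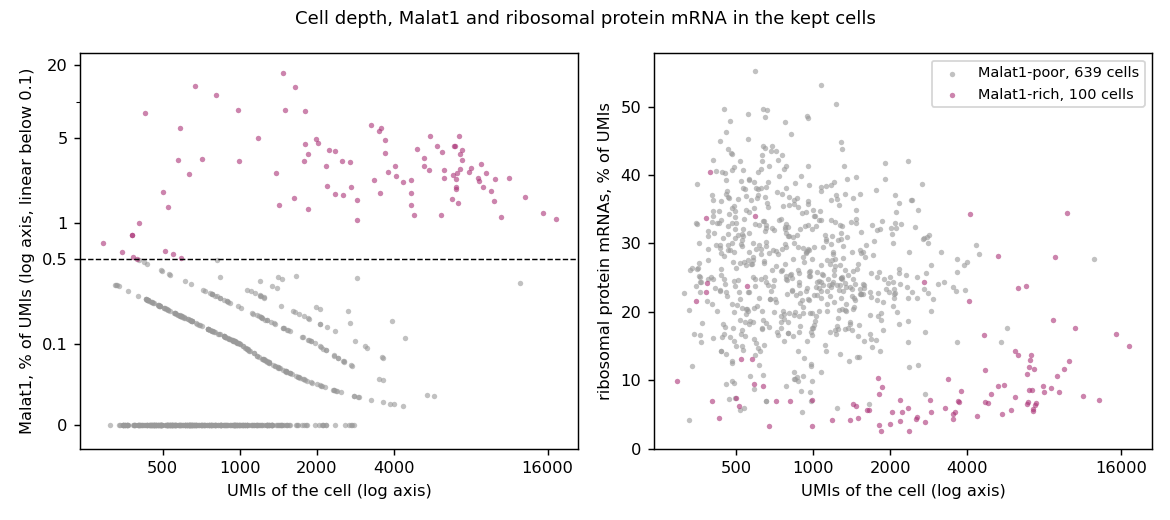
Malat1 share (left, log axis, linear below 0.1) and ribosomal protein mRNA share (right) of each kept cell against its UMIs (log axis). Malat1-rich cells (100, purple) are found at all depths, make up 46 of the 52 cells with 4000 or more UMIs, and mostly lie under the Malat1-poor cells (639, grey) in ribosomal protein share.

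Relatives of the 8 genes shared the pattern to different degrees. Of 97 other genes in 7 lists of nuclear RNA processing, 53 had at least 50 UMIs. Of these, 24 (45.3%) had a ratio over 2, and the median ratio was 1.89. Over all 2341 genes with at least 50 UMIs these values were 24.5% and 1.08. Among SR proteins 7 of 8 had a ratio over 2, led by the splicing activators Tra2b (17.8) and Tra2a (9.50), with Srsf7 at 8.07. Of the SR kinases, Srpk2 (5.01) and Prpf4b (2.90) could be measured. Speckle and paraspeckle proteins passed 2 in 6 of 10 genes, with Rbm39 at 6.96. RNA helicases passed 2 in 1 of 2 genes. U1 and U2 snRNP proteins passed 2 in 4 of 12 genes (33.3%), with a median ratio of 1.26. Of the relatives of Sf3b1 among them, Sf3b2 had a ratio of 1.09, Sf3b6 0.926, Sf3b4 0.774 and Sf3b5 0.582. The hnRNP proteins, which bind nascent transcripts and often oppose SR proteins, passed 2 in 3 of 18 genes (16.7%). Their median ratio was 1.42. Xist, the noncoding RNA that coats the inactive X chromosome and stays in the nucleus, had a ratio of 26.8 (853 against 31.9 CPM) and was higher in Malat1-rich cells in 9 of 9 libraries.

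To describe sequence that the members may share, the 250 bases before the transcription start were searched on both strands for TGACG, the core of a cAMP response element, and for the AP-1 motif by its name, since immediate-early factors bind such sites. RefSeq (GRCm38.p6) gave such windows for 6 of the 8 genes, Malat1, Sf3b1, Srsf5, Srsf2, Ddx5 and Son. TGACG was found for Malat1 at 154 and 45 bases before the start, for Son at 172 and 129 bases and for Srsf5 at 16 bases, and 17.8% of 32851 promoters hold it. The AP-1 motif was found for none of the 6 and in 6.75% of all promoters. No TGACG was found for Sf3b1, Srsf2 or Ddx5. Srsf2, Ddx5 and Son, like Malat1 and Srsf5, were lower after 7 days of light. The windows of Malat1 (chr19:5802673-5802922, minus strand) and Srsf5 (chr12:80945249-80945498, plus strand) are shown as examples that hold the motif. TGACG or its reverse complement is in capitals, and its part in the levels of these genes was not tested.
Malat1: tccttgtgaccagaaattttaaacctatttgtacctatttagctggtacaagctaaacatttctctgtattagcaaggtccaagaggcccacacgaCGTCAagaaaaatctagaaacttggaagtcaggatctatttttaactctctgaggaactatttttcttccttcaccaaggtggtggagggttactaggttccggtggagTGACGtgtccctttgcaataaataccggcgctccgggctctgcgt
Srsf5: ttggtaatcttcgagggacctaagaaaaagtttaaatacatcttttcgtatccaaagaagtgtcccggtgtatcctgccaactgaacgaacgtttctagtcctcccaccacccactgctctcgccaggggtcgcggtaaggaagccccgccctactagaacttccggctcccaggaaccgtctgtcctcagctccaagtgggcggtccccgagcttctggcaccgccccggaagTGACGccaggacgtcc

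The question between time points was whether these RNAs differ in retinal myeloid cells just after photoreceptor loss (7 days) and long after it (20 days) from those before it. After 7 days of light 6 of the 8 genes were lower than at day 0 and none was higher (edgeR quasi-likelihood test over 1368 genes, adjusted p under 0.05). In that comparison 16.4% of all tested genes were called lower, 9.43% higher and 25.9% in either direction. After 20 days 2 of the 8 were lower than at day 0, where 1.97% of all genes were called lower, 1.17% higher and 3.14% in either direction. The median log2 fold change of the 8 genes was -1.40 at day 7 and -1.09 at day 20, against -0.08 and -0.01 over all genes. Both comparisons use the same day 0 libraries. Statements below that libraries did or did not overlap describe single genes. The share of all tested genes without overlap was not counted. The 8 genes were chosen with earlier results of these data known, for moving together between cells, so their calls are not independent. A sum over cells cannot tell fewer Malat1-rich cells apart from less of each RNA per cell.

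Neat1 had the largest fold change of the 8 in both comparisons. It stood at 967, 791 and 1268 CPM at day 0, at 216, 59.7 and 342 CPM at day 7, and at 342, 264 and 24.9 CPM at day 20. The values after light rest on few molecules, 60, 6 and 7 UMIs at day 7 and 27, 42 and 1 at day 20. The 27 UMIs of replicate 1 of day 20 came from 3 cells. No library after light reached the lowest of the dark libraries. It was 5.30-fold lower at day 7 (log2 fold change -2.41 ± 0.54 SE, adjusted p = 0.00486) and 4.32-fold lower at day 20 (-2.11 ± 0.51 SE, adjusted p = 0.0352). The day 20 call was kept in 4 of 9 fits that each left out 1 library. It was lost without replicate 1 or 3 of day 0, replicate 1 of day 7, or replicate 2 or 3 of day 20, and the adjusted p over the 9 fits ran from 0.0121 to 0.0809 (edgeR).

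Malat1 stood at 15973, 21740 and 15206 CPM at day 0, at 4800, 4565 and 12718 CPM at day 7, and at 7719, 9358 and 5675 CPM at day 20. The dark libraries were all above the others, but replicate 3 of day 7, the library of 17 cells, came close to them. Malat1 was 2.25-fold lower at day 7 (log2 fold change -1.17 ± 0.36 SE, adjusted p = 0.0267), a call kept in 6 of 9 fits that left out a library and lost without replicate 2 of day 0 (adjusted p = 0.082 by edgeR) or replicate 1 (0.117) or 2 (0.122) of day 7. At day 20 the log2 fold change was -1.22 ± 0.35 SE, which did not pass (adjusted p = 0.0723), although it passed without replicate 3 of day 7 (adjusted p = 0.00374 by edgeR). After every cell was thinned to 579 UMIs, which left 191 of 255 cells at day 0, 227 of 284 at day 7 and 137 of 200 at day 20, a Malat1 UMI was found in 58.9% ± 4.47, 42.6% ± 18.6 and 38.7% ± 8.63 (SD, n = 3) of cells per library. Pooled over cells the thinned shares were 58.6%, 32.2% and 37.2%, and before thinning the same cells gave 75.9%, 51.1% and 56.2%. The thinned mean of day 7 includes replicate 3, with 11 cells at 63.6%, against 28.6% and 35.5% in replicates 1 and 2. No cell type here is known to lack Malat1, so no background share can be set beside these.

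Both SR proteins were lower at day 7, and neither passed at day 20. Srsf5 stood at 569, 621 and 831 CPM at day 0, 202, 99.4 and 245 CPM at day 7, and 456, 365 and 299 CPM at day 20. The 3 groups did not overlap. It was 3.66-fold lower at day 7 than at day 0 (log2 fold change -1.87 ± 0.34 SE, adjusted p = 0.00114). At day 20 the log2 fold change was -0.83 ± 0.31 SE against day 0 (adjusted p = 0.190) and 1.05 ± 0.36 SE against day 7 (adjusted p = 0.123).

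Srsf2 stood at 440, 385 and 350 CPM at day 0, 137, 79.6 and 147 CPM at day 7, and 443, 277 and 174 CPM at day 20. Day 20 spanned the dark range, with its highest library above all dark libraries. Srsf2 was 3.11-fold lower at day 7 (log2 fold change -1.64 ± 0.36 SE, adjusted p = 0.00414), a call lost without replicate 2 of day 7 (adjusted p = 0.0705 by edgeR). The day 20 value against day 0 was -0.36 ± 0.32 SE (adjusted p = 0.623). Against day 7 it was 1.27 ± 0.38 SE, just short of the threshold (adjusted p = 0.0659). The Srsf2 gene (chr11:116849901-116853094) overlaps Mettl23 and Mfsd11 on the other strand, and the strand setting of the counting is not given, so some of its UMIs may be theirs.

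Clk1, the SR protein kinase, stood at 281, 241 and 186 CPM at day 0, 101, 89.5 and 147 CPM at day 7, and 38.0, 126 and 74.7 CPM at day 20. All libraries after light were under the dark libraries. It rests on few molecules (110, 40 and 26 UMIs per day) and neither the day 7 value (log2 fold change -1.12 ± 0.41 SE, adjusted p = 0.0549) nor the day 20 value (-1.46 ± 0.41 SE, adjusted p = 0.0713) passed. The day 20 value moved when single libraries were left out, with -2.20 without replicate 2 of day 20 (adjusted p = 0.0503 by edgeR) and -1.09 without replicate 1 of day 20 (adjusted p = 0.321 by edgeR).

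The helicase Ddx5 had the smallest adjusted p of the 8 at day 7. It stood at 1578, 1443 and 1487 CPM at day 0, 500.5, 388 and 245 CPM at day 7, and 810, 686 and 672 CPM at day 20. Its groups did not overlap, and day 20 lay between the others. Ddx5 was 3.42-fold lower at day 7 (log2 fold change -1.77 ± 0.27 SE, adjusted p = 0.000277), in 9 of 9 fits that left out a library. It was 2.08-fold lower at day 20 (-1.06 ± 0.26 SE, adjusted p = 0.0390), a call that held in 1 of those 9 fits, the one without replicate 3 of day 7, with adjusted p from 0.0195 to 0.196 over the fits (edgeR). The value of day 20 against day 7 was 0.72 ± 0.28 SE (adjusted p = 0.199).

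Son, which holds speckles together, stood at 349, 462 and 339 CPM at day 0, 166, 239 and 97.8 CPM at day 7, and 152, 201 and 174 CPM at day 20. Every library after light lay under the dark ones. It was 1.96-fold lower at day 7 (log2 fold change -0.97 ± 0.31 SE, adjusted p = 0.0314), but the call was lost in each of the 9 fits that left out a library (adjusted p from 0.0543 to 0.209 by edgeR). At day 20 the log2 fold change was -1.12 ± 0.31 SE (adjusted p = 0.0653). Son overlaps Donson on the other strand.

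Sf3b1 stood at 245, 257 and 240.5 CPM at day 0, 151, 89.5 and 147 CPM at day 7, and 127, 151 and 174 CPM at day 20. The dark libraries were close together and above the rest. It gave the smallest fold change of the 8 at day 7, -0.85 ± 0.34 SE (adjusted p = 0.0733), and -0.75 ± 0.33 SE at day 20 (adjusted p = 0.284), and neither passed.

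**Figure D4:**
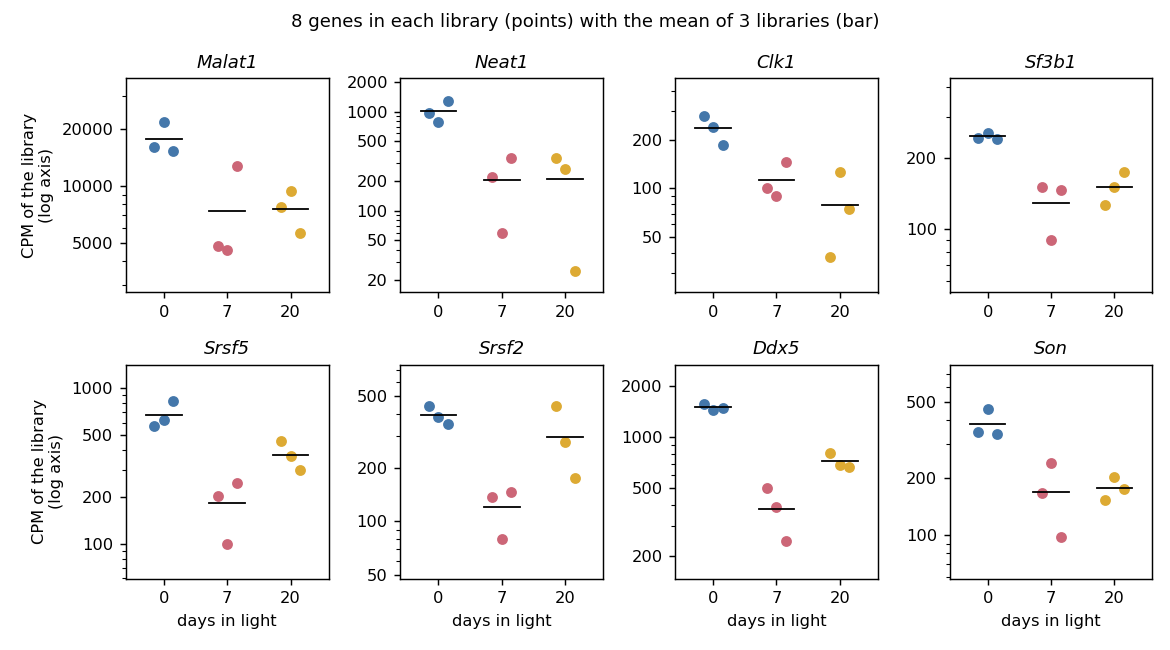
CPM of the 8 genes in each library (points, log axis) after 0, 7 and 20 days of light, with the mean of 3 libraries as a bar. The day 0 points lie above all points of day 7 for each gene, and above all points of day 20 for each gene but Srsf2. How many of all tested genes are separated in this way was not counted.

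Between days 7 and 20 none of the 8 genes passed the edgeR or the DESeq2 test, where edgeR called 3.87% of all genes higher, 0.95% lower and 4.82% in either direction. At an unadjusted p under 0.05 (edgeR) there were 3, Srsf2, Srsf5 and Ddx5. All 3 had higher values at day 20 and libraries that did not overlap. By p they ranked 82, 119 and 152 among the 1368 tested genes, so many other genes had a smaller p. The shares of all tested genes under that limit or without overlap are not given here. For the other 5 genes the libraries of the 2 days overlapped.

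Of the 97 other genes of nuclear RNA processing, 32 could be tested. At day 7 7 of them were lower and none was higher, a share of 21.9% by edgeR against 16.4% of all genes. Among SR proteins 3 of 4 were lower, namely Tra2b (log2 fold change -1.87), Srsf7 (-2.47) and Srsf3 (-1.15), while Srsf6 gave -0.83 (adjusted p = 0.182 by edgeR). The helicase Ddx3x, the speckle-associated splicing factor Rbm25 (-1.26) and Hnrnpdl (-1.89) were also lower. That made 1 of 2 helicases, 2 of 7 speckle and paraspeckle proteins and 1 of 14 hnRNP proteins. None of 4 U1 and U2 snRNP genes passed, none of the SR kinases could be tested, and Xist gave -0.77 (adjusted p = 0.425 by edgeR). After 20 days none of the 32 passed by edgeR or DESeq2, against day 0 (4 at an unadjusted p under 0.05 by edgeR) or against day 7 (2 at that limit). DESeq2 called 3 of the 32 lower at day 7, and the share of all genes it called lower is not given here. Tra2b came nearest to the threshold at day 20 against day 0 (-1.26, adjusted p = 0.0517 by edgeR).

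Other measures of the libraries also differed between days. Immediate-early genes summed to 32932, 34112 and 42787 CPM at day 0, 4965, 2834 and 5919 CPM at day 7 and 20664, 13180 and 7740 CPM at day 20. They were lower at day 7 in 11 of 12 genes, with Junb at -3.54 and Jun at -3.94 on the log2 scale. At day 20 they were lower in 5 of 12. Of all tested genes 16.4% were called lower at day 7 and 1.97% at day 20. From day 7 to day 20, 6 of the 12 were higher, against 3.87% of all tested genes and none of the 8 members. Of 5 heat-shock genes tested 4 were lower and 1 higher at day 7, where 16.4% of all genes were called lower and 9.43% higher. Ribosomal protein mRNAs took 13.4% to 17.3% of UMIs at day 0, 15.0% to 26.4% at day 7 and 16.6% to 20.9% at day 20. The part of these measures in the difference of the 8 genes between days was not tested.

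By profile over the 9 libraries (root mean square difference of centred log2 CPM), the nearest tested genes were F11r and St3gal5 for Malat1 (0.271 and 0.311), Tagap and Skil for Neat1 (0.410 and 0.553), and Lair1 and Crybb1 for Clk1 (0.291 and 0.326). For Sf3b1 they were Eif4g2 and Prkcd (0.145 and 0.199), for Srsf5 Ier2 and Cmtm6 (0.239 and 0.247), and for Srsf2 Ecscr and Mat2a (0.249 and 0.294). Ddx5 was nearest to Sfr1 and Actg1 (0.298 and 0.308) and Son to Irf5 and Hspa8 (0.277 and 0.315). Only Ier2 of these is on the immediate-early list and only Hspa8 on the heat-shock list. Crybb1 is on the lens list, although it is also known as a microglial transcript.

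Within the classes no day effect on the members was called. Pooled over the Malat1-rich cells of days 0, 7 and 20, Malat1 stood at 30897, 25572 and 21328 CPM. Neat1 stood at 1526, 774 and 599 CPM, and Ddx5 at 2183, 1051 and 1304 CPM. Clk1 stood at 392, 360 and 222 CPM, and Sf3b1 at 346, 332 and 251 CPM. Library means kept that order for Malat1 (29898, 28649 and 27797 CPM), Neat1, Ddx5 and Clk1. For Sf3b1 they were 347, 304 and 432 CPM, the last from libraries at 178, 240 and 878 CPM. The sums over 60, 21 and 19 cells are small, and the standard errors of the log2 fold changes were larger than in the full set. Among Malat1-rich cells the day 7 log2 fold change was -1.09 ± 0.63 SE for Neat1 (adjusted p = 0.335 by edgeR) and -0.95 ± 0.59 SE for Ddx5 (adjusted p = 0.371), but 0.08 ± 0.58 SE for Clk1, 0.06 ± 0.62 SE for Sf3b1 and 0.20 ± 0.57 SE for Son. None of the 7 genes tested there passed, while 73 of all 783 genes did.

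Among Malat1-poor cells only Srsf5 and Ddx5 had enough UMIs for the test. Their day 7 log2 fold changes were -1.26 ± 0.47 SE (adjusted p = 0.0834 by edgeR) and -0.87 ± 0.38 SE (adjusted p = 0.152), where 107 of 903 genes passed. A difference of the day effect between the classes was not tested.

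**Figure D5:**
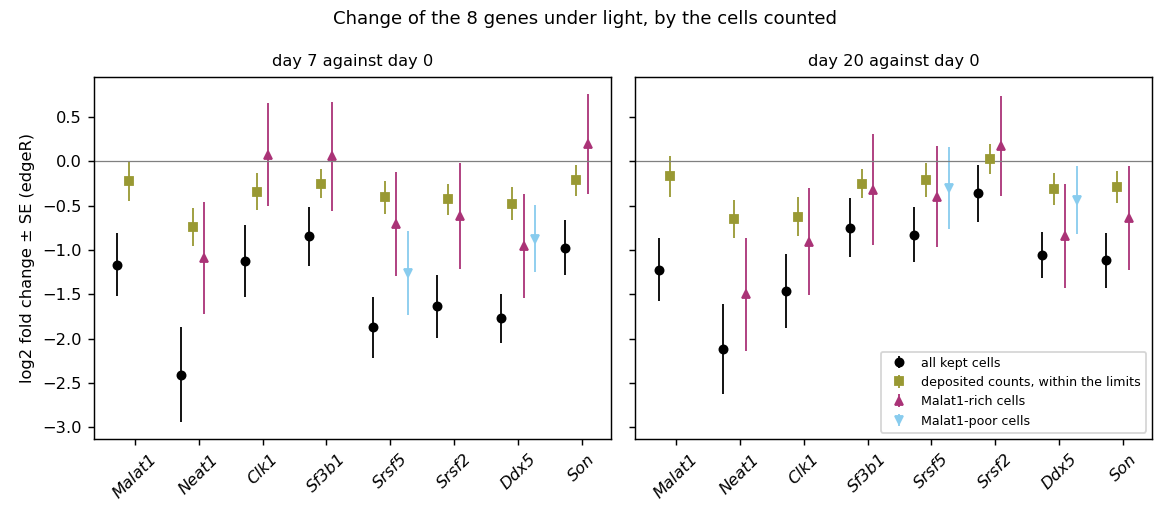
Log2 fold change (edgeR, ± SE) of the 8 genes at day 7 and day 20 against day 0, with all kept cells (black), deposited counts, in which a barcode counts in every library where it meets the limits (olive), Malat1-rich cells (purple) and Malat1-poor cells (light blue, Srsf5 and Ddx5 only). The values from all kept cells lie lowest for every gene, and those from the deposited counts lie nearer to 0, at -0.23 for Malat1 and -0.74 for Neat1 at day 7.

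The calls depended on how repeated barcodes were treated. With each barcode entry that met the limits counted in every library that lists it (618, 699 and 565 entries at days 0, 7 and 20), none of the 8 genes passed in any comparison (edgeR, with 4, 2 and 1 at an unadjusted p under 0.05), and the day 7 log2 fold change was -0.23 ± 0.23 SE for Malat1, -0.74 ± 0.21 SE for Neat1 and -0.48 ± 0.18 SE for Ddx5. In those counts 64 of 2659 genes were called at day 7 and none at day 20. At an unadjusted p under 0.05 (edgeR) there were 580 of the 2659 genes at day 7 against day 0. At day 20 there were 214 against day 0 and 162 against day 7. The share of Malat1-rich entries was then 34.8%, 30.8% and 34.7% at days 0, 7 and 20.

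After light, the members were also compared between cells with and without a UMI of the MHC class II genes H2-Aa, H2-Ab1 and H2-Eb1, which mark antigen-presenting macrophages. At day 20 Malat1 stood at 10467 CPM in 99 cells with such a UMI, of which 13 were Malat1-rich, and at 2723 CPM in 101 cells without, of which 6 were. At day 7 it stood at 5686 CPM in 224 cells and 1072 CPM in 60 cells. Ddx5 stood at 850 and 370 CPM at day 20. By level the MHC class II genes went the other way at day 20, at 1758 CPM in Malat1-rich and 5697 CPM in Malat1-poor cells. Cells with an MHC class II UMI were deeper, with a median of 1174 against 653 UMIs at day 7 and 980 against 618 at day 20. The part of depth in the difference between cells with and without such a UMI was not tested.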

How the data were processed

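CD45+ CD11b+ retinal cells were profiled in 9 libraries, 3 per time point. The deposited values are raw UMI counts per gene and barcode, which the authors made with Cell Ranger (version not given in the sources used here) on mm10, per the labels; they are not normalized. Each barcode was assigned to the library with its highest UMI total (no ties). Kept cells had at least 200 genes, under 10% mitochondrial UMIs and more UMIs of the myeloid list than of any other cell type list, which left out 112 of 851 barcodes that passed the other limits. Doublets were not called. Counts were summed per library and fitted with edgeR 4.0.16 (quasi-likelihood, TMM, filterByExpr, R 4.3.3), day as the only term, with Benjamini-Hochberg adjustment over 1368 genes. The study's own test was made over cells; libraries were used here because cells are not replicates. DESeq2 1.42.0 was an alternative. The code was tested on simulated data. Thinning drew 579 UMIs per cell. The 8 genes and all lists were chosen with earlier results of these data known. Named genes were the 8 members, of each list up to 4 genes past the threshold with the smallest adjusted p, and the 2 nearest profiles per member; ratios between Malat1 classes name further list genes, chosen after their values were seen. GENCODE M21 held 98.7% of the gene identifiers in the files. Titles give the times in hours and the treatment labels in days, and days were used. Values of single list genes not named are not reported here.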

Additional observations from a re-analysis of the deposited data

Results flagged for a closer look

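Malat1 was also measured in barcodes that entered no comparison. In the 75 barcodes left out because rod markers exceeded myeloid markers Malat1 stood at 33899 CPM, and in the 21 left out for Müller glia and astrocyte markers at 69427 CPM, both above the 11197 CPM of all kept cells. Neat1 did not follow, with 124 and 57.0 CPM (12 and 2 UMIs) in those barcodes and 507 CPM in the kept cells. Ddx5 stood at 1562 and 1112 CPM against 939 CPM in the kept cells.

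Entries of Malat1-rich barcodes in libraries other than their own, 638 in all and not used in the comparisons, held Malat1 at 44523 CPM, which was 1.60 times the level in their own library. The other 7 genes stood at 0.908 to 1.37 times their own-library level in those entries. In the 2345 such entries of Malat1-poor barcodes Malat1 was at 987 CPM (1.32 times) and Neat1 at 0.271 times its own-library level.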

How the results depend on the processing

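In the 9 fits that each left out 1 library, all 8 genes kept a negative log2 fold change against day 0 at both times, but calls and counts depended on the cells and libraries used. Counts of genes called, and then of members called, are given in the order day 7 against day 0, day 20 against day 0, day 20 against day 7. They were 354, 43 and 66 genes with 6, 2 and 0 members as reported (edgeR). Over the 9 fits the genes ranged from 190 to 528, from 27 to 50 and from 14 to 94, and the members from 3 to 5, from 0 to 3 and from 0 to 1. Without both replicate 3 libraries of days 7 and 20 they were 621, 50 and 126 genes and 5, 3 and 2 members, the last both higher at day 20, among them Malat1 at 0.71 (adjusted p = 0.0348 by edgeR), while Sf3b1 turned to -0.018.

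The treatment of barcodes moved the counts most. Deposited counts, with each barcode entry within the limits kept in every library, called 64, 0 and 0 genes and no member, and turned Srsf2 to 0.026 at day 20 against day 0 and Malat1 to 0.054 at day 20 against day 7. Barcodes of every marker type within the other limits gave 183, 37 and 12 genes and 3, 0 and 0 members, and all barcodes without a limit gave 163, 32 and 3 genes and 3, 0 and 0 members, with Sf3b1 at -0.023 at day 20 against day 7. Cells thinned to one depth gave 105, 57 and 10 genes of 538 tested and 2, 3 and 0 members of 4 tested, with Neat1 at -1.22 at day 20 against day 7. With no filter on low counts 251, 53 and 38 genes and 3, 1 and 0 members passed and Malat1 stood at 0.21 at day 20 against day 7, and with a limit of 100 genes per cell it stood at 0.0064. DESeq2 called 5, 3 and 0 members, and the share of all genes it called is not given here. The cause of these shifts was not tested.

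Splits chosen after seeing the data were the Malat1 classes. Malat1-rich cells alone gave 73, 9 and 9 genes of 783 tested and 0 members, and turned Clk1 (0.076), Sf3b1 (0.055) and Son (0.20) at day 7 against day 0, Srsf2 (0.17) at day 20 against day 0, and Neat1 (-0.41) and Sf3b1 (-0.38) at day 20 against day 7. Malat1-poor cells alone gave 107, 25 and 28 genes of 903 tested and 0 members. The share of Malat1-rich cells was 34.8%, 30.8% and 34.7% at days 0, 7 and 20 in the deposited counts, and at day 20 17.1% over all barcodes and 6.57% with a limit of 1%. At day 20 against day 7 the 9 fits also changed the sign of 4 genes. Malat1 ran from -0.29 to 0.56 and was positive without replicate 3 of day 7 (0.56) or of day 20 (0.21). Neat1 ran from -0.27 to 0.66 and was negative without replicate 2 of day 7 (-0.27) or replicate 1 of day 20 (-0.099). Without replicate 2 of day 7 Sf3b1 turned to -0.22, of a range up to 0.35, and Son to 0.028, of a range down to -0.34.

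Replicate numbers did not pair the libraries (correlations of same-numbered libraries from -0.0363 to 0.146, 3 of 9 libraries nearest to their own number). With the replicate number as a replicate block 350, 38 and 53 genes and 6, 1 and 0 members were called, and Malat1 stood at 0.028 at day 20 against day 7.

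Levels of the 8 genes by day stayed within 1 SD of the reported mean in 7 of 24 cases with the deposited counts and in 19 of 24 over all barcodes. The depth of single cells limits what can be said of a member per cell, since 195 of 739 cells held no UMI of any of the 8 genes, and the libraries of 17 and 33 cells set much of the spread after light.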

Other observations

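The genes that stood furthest apart between Malat1-rich and Malat1-poor cells were picked by their ratio, after the values were seen, and have no test. Besides Malat1 and Xist, high ratios that were seen in at least 7 of 9 libraries belonged to the gene model Gm26699 (95.0, 7 libraries), Maff (34.4, 7 libraries), Tsc22d2 (31.4, 9 libraries), Klf4 (28.3, 7 libraries), Ankrd44 (29.6, 7 libraries) and the amino acid transporter gene Slc38a2 (25.3, 8 libraries). The cytokine gene Il6 had 73 UMIs, all in Malat1-rich cells, but was higher there in 2 libraries only. At the other end, Spp1, encoding osteopontin, stood at 124 CPM in Malat1-rich and 711 CPM in Malat1-poor cells at day 7 and at 29.0 and 1358 CPM at day 20. The growth factor gene Igf1 stood at 55.3 and 227 CPM at day 7, and the lipid-handling genes Apoc1 at 194 and 591 CPM and Fabp5 at 124 and 699 CPM. At day 0 Igf1 stood at 0 CPM in both classes, and Spp1 and Apoc1 at 0 CPM in Malat1-rich and 5.28 CPM in Malat1-poor cells.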
